A study of Homo sapiens with 4 samples.

Results

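The genes described here encode chaperones of the endoplasmic reticulum (ER), the protein translocation machinery of its membrane and the regulators of the unfolded protein response. They are 36 genes chosen by symbol from the 12033 genes of the expression table. All 36 were listed, and 35 of them had a mean of at least 2 RPKM (reads divided by transcript length and by the mapped reads of the library) over the 4 libraries and were compared, among 7589 genes in all. The remaining member, EIF2AK3, had a mean of 1.38 RPKM and is given by its levels.

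RNA was sequenced from human BJ fibroblasts, an established skin fibroblast line immortalized with hTERT, that carried an inducible RASG12V oncogene. All 4 conditions received 4-hydroxytamoxifen (4-OHT), which switches the oncogene on, for 14 days, and differed in the transduced CRISPR guide. The control guide, sgRNA-NT, has no target, the guides sgRNA-AP1-69 and sgRNA-AP1-71 cut the enhancer Enh.AP1.OIS1, and sgRNA-FOXF1 cuts the FOXF1 gene itself. Each condition was represented by 1 library of 1 transduced population, without an uninduced control, so every level below is a single value with no replicate error. The only p-values come from a fit that takes its spread from the gap between the enhancer guides. Where 4 levels of a gene follow each other, they are those of sgRNA-NT, sgRNA-AP1-69, sgRNA-AP1-71 and sgRNA-FOXF1 in that order, and 3 values against the control follow the same order of guides.

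Most proteins destined for secretion, and many membrane proteins, enter the ER through the SEC61 channel. Those with a cleavable signal peptide lose it, and chaperones, lectins and protein disulfide isomerases fold the proteins there. Proteins that fail to fold are sent back to the cytosol and degraded, a route called ER-associated degradation (ERAD). When unfolded proteins build up, the sensors ATF6, ERN1 and EIF2AK3 start the unfolded protein response, in which ATF6 and the transcription factor XBP1 raise the transcription of chaperone and ERAD genes and EIF2AK3 lowers protein synthesis. Senescent fibroblasts are known for a high output of secreted proteins, many of which pass through this machinery.

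ATF6 and XBP1 act through short promoter sequences called ER stress elements, and these are shown as a regulatory feature found in some of the chaperone genes. The first form, ERSE, which is CCAAT, 9 bases of any kind and CCACG, was searched on both strands from 250 bases before to 50 bases after the starts of RefSeq genes in GRCh38.p14. Of the 36 genes, 32 had a promoter in that table, and 7 of the 32 (21.9%) held an exact ERSE at 1 or more starts. So did 25 of all 27305 genes with a promoter there (0.0916%). ERSE was originally described in chaperone promoters, so its presence here is a description of the genes and not a result of the experiment. The windows below run 5′ to 3′ along the coding strand of each gene, the element is in capitals on whichever strand it lies, and 20 bases stand on each side.
HSPA5, chr9:125241371-125241429, minus strand: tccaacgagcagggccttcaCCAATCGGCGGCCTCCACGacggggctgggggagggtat
HSP90B1, chr12:103930196-103930359, plus strand: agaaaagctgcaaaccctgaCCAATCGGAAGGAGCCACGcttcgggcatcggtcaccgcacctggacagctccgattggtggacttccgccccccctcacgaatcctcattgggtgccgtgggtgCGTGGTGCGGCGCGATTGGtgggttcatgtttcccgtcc
CALR, chr19:12938364-12938422, plus strand: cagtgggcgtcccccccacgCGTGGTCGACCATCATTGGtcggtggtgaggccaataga
CANX, chr5:179698758-179698816, plus strand: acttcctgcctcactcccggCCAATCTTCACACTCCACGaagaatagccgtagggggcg
PDIA6, chr2:10812833-10812891, minus strand: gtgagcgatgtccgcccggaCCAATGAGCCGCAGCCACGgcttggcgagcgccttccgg
CRELD2, chr22:49918534-49918592, plus strand: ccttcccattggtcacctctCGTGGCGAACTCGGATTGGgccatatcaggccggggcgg
XBP1, chr22:28800583-28800641, minus strand: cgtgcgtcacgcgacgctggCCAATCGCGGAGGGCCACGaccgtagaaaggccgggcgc
In the windows of CALR and CRELD2, and in the second of the 2 elements of HSP90B1, the element reads as its reverse complement. The table gives 4 starts for CANX, 3 of them with the element, and 2 starts each for PDIA6 and XBP1, 1 of them with it.

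The shorter form, ERSE-II, which is ATTGG, any base and CCACG, was found in 3 further genes of the set (9.38% of 32). Of all 27305 genes, 19 held it (0.0696%). It shares the letters CCACG with ERSE, and no gene of the set held both forms. The windows are printed in the same way.
HYOU1, chr11:119057254-119057410, minus strand: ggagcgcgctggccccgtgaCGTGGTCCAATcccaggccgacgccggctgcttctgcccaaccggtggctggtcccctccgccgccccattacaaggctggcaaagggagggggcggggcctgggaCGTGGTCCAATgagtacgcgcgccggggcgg
HERPUD1, chr16:56932005-56932055, plus strand: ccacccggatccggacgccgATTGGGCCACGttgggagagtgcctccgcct
SDF2L1, chr22:21642094-21642144, plus strand: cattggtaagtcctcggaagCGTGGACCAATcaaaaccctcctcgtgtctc
Those of HYOU1, which holds 2 copies, and SDF2L1 read as the reverse complement. Another motif is TGACGTGG, the core of the sequence bound by XBP1 and ATF6. It was present in SSR3, SSR4 and HYOU1 and in 0.927% of all 27305 genes. In HYOU1 it overlaps the first ERSE-II copy. The absence of a match says only that these letters are not in the window.

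The libraries were first checked against their labels and against markers. The FOXF1 transcript was at 29.6, 11.1, 7.8 and 25 RPKM, lowest in the enhancer libraries. A cut in a coding sequence need not lower the transcript, so the last value neither checks nor contradicts the label. All 6 fibroblast markers were listed, with a summed level between 3517.8 and 5315.7 RPKM, lowest with sgRNA-NT. Among them COL1A1 was at 120.6, 53.7, 42.5 and 115.6 RPKM, and VIM at 1775.3, 2644.9, 2644.9 and 2382.4 RPKM. Of 4 epithelial markers only KRT8 and KRT18 were listed, summing to between 80.5 and 144.1 RPKM, and none of the 6 endothelial and leukocyte markers was. The 13 mitochondrially encoded mRNAs, taken as a sign of RNA quality, had median log2 ratios to the control of -1.02, -1.54 and -0.77. HRAS was at 829.4, 446.4, 427.4 and 707.6 RPKM, and the part of these differences in the results below was not tested.

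The 36 genes together summed to 3436.2, 2794, 2711.1 and 3177.2 RPKM. The sum was thus lower than that of sgRNA-NT in every targeted library, at 0.813, 0.789 and 0.925 of it. The largest part of the difference lay in the protein disulfide isomerases, which alone summed to 1025, 678.4, 648.4 and 834.8 RPKM. The translocation genes summed to 619.4, 615.8, 601.2 and 610.5 RPKM, between 0.971 and 0.994 of sgRNA-NT. In bulk RNA, fewer cells of a kind and less RNA per cell cannot be told apart.

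The size rule for calling a gene higher or lower than the control was 1.5-fold. With sgRNA-AP1-69, 10 of 35 genes (28.6%) were lower than with sgRNA-NT and 0 were higher, against 9.92% lower and 8.17% higher among all 7589 genes compared. With sgRNA-AP1-71, 8 were lower and 1 was higher, against 14.7% and 14.0% of all genes. With sgRNA-FOXF1, 9 were lower and 1 was higher, against 13.2% and 11.6%. The median log2 ratio of the 35 genes was -0.13, -0.18 and -0.09 in these comparisons, where that of all genes was 0.07, 0.08 and 0.05. The 3 comparisons share the sgRNA-NT library, so that a deviation of that library enters each of them.

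The lumenal chaperones differed among themselves. HSPA5, also called BiP, the Hsp70 chaperone that holds the sensors inactive, was at 379.8, 315.9, 334.2 and 306.2 RPKM. Its log2 ratios of -0.27, -0.18 and -0.31 stayed within 1.5-fold. HSP90B1, the Hsp90 chaperone of the ER (chr12:104323885-104347709, plus strand, GRCh37), was at 104.5, 55.1, 50.6 and 54.2 RPKM. All 3 targeted libraries lay close together and far from the control, at log2 ratios of -0.92, -1.05 and -0.95. Both genes carry an exact ERSE in the windows printed above, 1 copy in HSPA5 and 2 in HSP90B1.

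DNAJC3, a co-chaperone that also inhibits EIF2AK3, was the other lumenal gene past 1.5-fold. It was listed at 7.3, 3.8, 3.8 and 3.2 RPKM, the targeted libraries being 1.92-fold, 1.92-fold and 2.28-fold lower. The other 7 lumenal genes stayed within 1.5-fold in all 3 comparisons. SDF2L1, which works with DNAJB11 at BiP, was at 34.9, 40.3, 43.0 and 46.9 RPKM, and MANF, a small ER stress protein, at 51.9, 58.0, 68.6 and 59.3 RPKM, both lowest with sgRNA-NT. HYOU1, the nucleotide exchange factor of BiP, was at 39.9, 34.7, 32.4 and 40.5 RPKM, and the stress-inducible CRELD2 at 12.1, 11.3, 10.7 and 15.2 RPKM. In these 2 genes both enhancer guides lay below the control and sgRNA-FOXF1 above it. The co-chaperones DNAJB9 (4.4, 4.8, 5.8 and 4.1 RPKM) and DNAJB11 (6.5, 5.7, 6.5 and 4.7 RPKM) were expressed at a low level throughout.

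The lectin chaperones bind the sugar chains of new glycoproteins, CALR in the lumen and CANX in the membrane. CALR was the most abundant member, at 922.1, 775.8, 696.0 and 1012.7 RPKM, ranks 34, 41, 47 and 30 among the 12033 genes. CANX was at 91.5, 59.3, 73.4 and 52.9 RPKM, or 1.54-fold, 1.25-fold and 1.73-fold lower than the control. Both lectins thus lay below the control with each enhancer guide. They parted with sgRNA-FOXF1, where CALR was highest and CANX lowest.

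The protein disulfide isomerases, which form and rearrange disulfide bonds, lay below the control or level with it in every comparison. With sgRNA-AP1-69, 3 of 4 were lower, with each of the other guides 2 of 4, and none was higher. PDIA3 (chr15:44038592-44065477, plus strand), the isomerase that works with the lectins, was at 157.9, 98.5, 101.2 and 92.8 RPKM. PDIA6, which works with BiP, was at 172.4, 103.7, 118.8 and 102.4 RPKM, with sgRNA-AP1-71 just inside the rule at 1.45-fold lower. Both had all 3 targeted libraries well below the control.

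P4HB (chr17:79801035-79818732, minus strand), the classical isomerase and a subunit of collagen prolyl hydroxylase, followed another order. It was at 532.0, 346.6, 305.2 and 476.9 RPKM, or 1.53-fold, 1.74-fold and 1.12-fold lower. PDIA4 was at 162.7, 129.6, 123.2 and 162.7 RPKM, equal in sgRNA-NT and sgRNA-FOXF1. In P4HB and PDIA4 the enhancer guides were therefore the lowest libraries and sgRNA-FOXF1 lay near or at the control.

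Among the ERAD genes, SEL1L and SYVN1 encode the adaptor and the ubiquitin ligase of a single membrane complex. SEL1L (chr14:81937891-82000197, minus strand) was at 8.9, 4.8, 4.7 and 3.5 RPKM, and its log2 ratio of -1.35 with sgRNA-FOXF1 was the lowest of any member in that comparison. SYVN1 was at 7.1, 4.4, 3.2 and 5.1 RPKM, lowest with sgRNA-AP1-71 at 2.22-fold below the control and within 1.5-fold with sgRNA-FOXF1. EDEM1, which marks misfolded glycoproteins for degradation, was at 16.5, 9.3, 11 and 7.7 RPKM. Its value with sgRNA-AP1-71 lay exactly on the 1.5-fold limit and was counted.

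The other 4 ERAD genes did not pass 1.5-fold in any comparison with the control. EDEM2, a mannosidase that starts glycan trimming, was at 25.5, 26.7, 23.8 and 35.1 RPKM, highest with sgRNA-FOXF1. The derlins, membrane proteins of the exit route, were higher with both enhancer guides than with the other libraries: DERL1 was at 8.3, 9.8, 10.8 and 8.2 RPKM and DERL2 at 7.3, 9.8, 10.7 and 7.7 RPKM. HERPUD1, a stress-induced partner of the ligase complex, was at 15.6, 14.2, 13.3 and 15.3 RPKM.

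The sensors and transcription factors did not share a direction. ERN1, the sensor that splices the XBP1 transcript, was at 3.2, 1.7, 2.0 and 1.9 RPKM, highest in the control. Values with 1 decimal limit the precision at this level, since rounding alone allows a log2 ratio between -0.98 and -0.85 with sgRNA-AP1-69. EIF2AK3 was at 1.9, 1.3, 1.3 and 1.0 RPKM, the last being the floor of the table, so that it was at least 1.90-fold lower with sgRNA-FOXF1 as the values are listed. ATF6 was at 11.6, 13.8, 15.6 and 11.3 RPKM, and XBP1 at 31.0, 39.3, 40.1 and 35.2 RPKM, both within 1.5-fold and both higher with each enhancer guide than with sgRNA-NT. Spliced and unspliced XBP1 cannot be told apart in a table of gene levels, and the processed forms of ATF6 are proteins.

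The 10 translocation genes showed few differences. With sgRNA-AP1-69, 0 of 10 were higher or lower by 1.5-fold, and with each of the other guides at most 1 gene passed in either direction. The channel subunits diverged: SEC61A1, the pore, was at 259.8, 238.0, 187.4 and 258.9 RPKM, whereas SEC61B was at 94.9, 106.6, 127.5 and 89.4 RPKM. SEC61G, the smallest subunit (chr7:54819943-54827667, minus strand), was at 21.9, 29.4, 37.9 and 26.2 RPKM, and at 1.73-fold was the only member counted as higher with sgRNA-AP1-71. In sgRNA-AP1-71 the subunits of a single channel thus spanned log2 ratios from -0.47 for SEC61A1 to 0.79 for SEC61G. Their transcripts differ in length, at 3568 nt for SEC61A1, 564 nt for SEC61B and 425 nt for SEC61G. After the correction for transcript length described below, their ratios with sgRNA-AP1-71 were -0.33, 0.09 and 0.50.

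The 4 SSR genes encode the translocon-associated protein complex, and they too differed in direction. SSR2 was at 48.8, 60.7, 66.3 and 74.6 RPKM and was the only member counted as higher with sgRNA-FOXF1, at 1.53-fold. SSR3 was at 85.8, 78.8, 84.7 and 58.4 RPKM, within 1.5-fold at its lowest, SSR4 at 40.2, 36.6, 35.8 and 50.2 RPKM, and SSR1 at 12.3, 12.0, 10.1 and 11.2 RPKM. Corrected for transcript length, the log2 ratios of SSR1, SSR2, SSR3 and SSR4 with sgRNA-AP1-71 were 0.39, 0.13, 0.19 and -0.52. Before the correction they were -0.28, 0.44, -0.02 and -0.17. TRAM1, which lies beside the channel, was at 26.6, 24.7, 26.2 and 17.2 RPKM, level with the control in both enhancer guides and 1.55-fold lower with sgRNA-FOXF1. The signal peptidase subunits stayed within 1.5-fold, SPCS1 at 20.9, 19.9, 14.3 and 16.3 RPKM and SPCS2 at 8.2, 9.1, 11 and 8.1 RPKM.

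The only spread that could be measured was that between the enhancer guides, which target a single element. The log2 difference between sgRNA-AP1-71 and sgRNA-AP1-69 had an SD of 0.21 over the 35 genes and 0.29 over all genes, and 0 of 35 genes differed by 1.5-fold in either direction, against 2.41% higher and 2.85% lower among all genes. The widest gaps were at SPCS1 (-0.48) and SYVN1 (-0.46) on the lower side and SEC61G (0.37) on the upper. Against sgRNA-NT the same 35 genes had SDs of 0.42, 0.51 and 0.50.

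limma was fitted across all 7589 genes with both enhancer guides as a group of 2, which leaves 1 residual degree of freedom. That residual is the gap between 2 different guides and not a replicate error, and the fit assumes it for the single libraries of sgRNA-NT and sgRNA-FOXF1, so the SEs and p-values do not measure the spread between cultures. With Benjamini-Hochberg adjustment, limma called 0 genes at adjusted p under 0.05 for the enhancer guides and 0 for sgRNA-FOXF1, and the smallest adjusted p of a member was 0.206 and 0.226. At unadjusted p under 0.05, limma gave 11 of 35 members for the enhancer guides, against 24.3% of all genes, and 9 of 35 for sgRNA-FOXF1, against 21.4%. HSP90B1 had a limma log2 ratio of -0.98 with an SE of 0.11 for the enhancer guides (adjusted p = 0.206) and of -0.95 with an SE of 0.13 for sgRNA-FOXF1 (adjusted p = 0.226).

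In that fit 251 genes, DNAJC3 among them, had the same value with both guides, and the prior degrees of freedom that limma estimated were 1.40. Without these genes, an alternative chosen after seeing the data, limma called 8 of 34 members for the enhancer guides, against 19.4% of 7338 genes, and 8 of 34 for sgRNA-FOXF1, against 14.3%. The genes with no gap were removed by their own values, so these calls depend on that choice and support no statement about a member.

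Transcript length moved with the ratios to the control. Over 7559 genes with a length, Spearman's rho between length and log2 ratio was -0.50 for sgRNA-AP1-69, -0.45 for sgRNA-AP1-71 and -0.45 for sgRNA-FOXF1, and over the 35 members it was -0.43, -0.45 and -0.64; genes are not independent replicates, all points of a comparison come from 2 libraries and the 3 comparisons share 1. The median canonical transcript length of the members was 2853 nt. Of the 17 members above it 7, 6 and 7 were lower, and of the 18 at or below it 3, 2 and 2 were. Shares of all genes on either side of that length were not counted, so these counts describe the members only. The short SEC61G, at 425 nt, had the highest ratio with sgRNA-AP1-71, and the long SEL1L, at 7919 nt, the lowest with sgRNA-FOXF1.

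Once the ratios had been corrected for transcript length, with a curve fitted over all genes, 5, 4 and 8 members were lower than the control, against 6.06%, 10.2% and 8.82% of all genes. HSP90B1 (corrected log2 ratios of -0.91, -1.02 and -0.96) and DNAJC3 (-0.65, -0.61 and -0.86) remained lower in each comparison. P4HB and SYVN1 remained lower with both enhancer guides. SEL1L, EDEM1 and PDIA3 remained lower with sgRNA-FOXF1 and no longer passed with either enhancer guide. For these guides PDIA3 kept most of its log2 ratio, at -0.55 and -0.49 after the correction from -0.68 and -0.64 before it. EDEM1 was at -0.50 and -0.20 after the correction, and SEL1L at -0.44 and -0.38. ERN1 and CANX no longer passed in any comparison. On the other side, ATF6, at 7470 nt, and DERL2, at 4167 nt, became the 2 members counted as higher with each enhancer guide (8.06% and 14.7% of all genes were), while SEC61G and SSR2 no longer passed and 0 members were higher with sgRNA-FOXF1 (11.6% of all genes). The part of length in the uncorrected ratios was not tested further. Ratios of sgRNA-FOXF1 to the control also moved with the GC content of the transcripts, at a rho of 0.33 over all genes and 0.48 over the members. When corrected for GC content instead, 5 of the 9 lower members kept the call: HSP90B1, DNAJC3, SEL1L, EDEM1 and ERN1. CANX, PDIA3, PDIA6 and TRAM1 lost it and SYVN1 gained it, against 10.3% of all genes lower.

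sgRNA-FOXF1 was then compared with the mean of both enhancer guides, a comparison that does not use sgRNA-NT. No member differed by 1.5-fold (0 higher and 0 lower of 35), against 5.85% higher and 3.53% lower among all genes. The members nearest to the limit were P4HB (0.55) on the higher side and TRAM1 (-0.56) on the lower side. At unadjusted p under 0.05, limma gave 8 of 35 members, against 9.65% of all genes, and 0 members or genes at adjusted p under 0.05, with a smallest adjusted p of 0.449.

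These differences moved with the GC content of the transcripts. Spearman's rho between GC content and the log2 difference was 0.60 over 7559 genes and 0.82 over the 35 members, all from the same 3 libraries. Of the 17 members above a GC content of 45.9%, 13 were higher with sgRNA-FOXF1 than with the enhancer guides, among them P4HB, SSR4, CRELD2 and CALR. Of the 18 members at or below it, 16 were lower, among them TRAM1, SSR3, SEL1L and DERL2. Shares of all genes on either side of that GC content were not counted. After a correction for GC content, the log2 difference of P4HB was 0.35 and that of TRAM1 -0.42, and the median over the 35 members was 0.04 where it had been -0.09.

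The printed elements were set beside the ratios. Of the 10 members with an exact ERSE or ERSE-II, 3, 1 and 3 were lower than the control and 0 were higher. Their median log2 ratios were -0.23, -0.27 and -0.003. The 21 compared members whose promoter held neither form had medians of -0.12, -0.10 and -0.09, with 6, 6 and 4 lower. Among all genes 9.92%, 14.7% and 13.2% were lower and 8.17%, 14.0% and 11.6% higher. The 14 compared genes outside the set that held either form had medians of 0.22, 0.12 and 0.01. Of these, 2, 1 and 2 were lower and 1, 1 and 2 higher. Within the first group the ratios with sgRNA-AP1-69 ran from -0.92 for HSP90B1 to 0.34 for XBP1, so genes with the same element lay at both ends.

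Other genes of the same pathways, in 9 lists without any of the 36 genes, gave 126 compared genes of 135. At 1.5-fold, 17, 25 and 22 of them were lower and 3, 6 and 7 were higher than the control, and their median log2 ratios were -0.15, -0.07 and -0.14. The lower genes were 13.5%, 19.8% and 17.5% of the 126, against the 9.92%, 14.7% and 13.2% of all genes given above, and the higher ones 2.38%, 4.76% and 5.56%, against 8.17%, 14.0% and 11.6%. The counts of each list below are to be read against the same shares of all genes. Neither these counts nor those of the 126 genes were corrected for transcript length, with which the ratios moved. The part of length in them was not tested. In the oligosaccharyltransferase list, the enzyme that attaches sugar chains, 2, 3 and 2 of 11 genes were lower and 1 was higher in each comparison. RPN2, a subunit of this enzyme, was at 262.1, 131.5, 104.5 and 142.4 RPKM, and DDOST at 216.5, 134.5, 113.0 and 187.4 RPKM, both highest with sgRNA-NT. The small subunit TMEM258 was at 15.3, 23.6, 27.5 and 26.2 RPKM and was the gene counted as higher.

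Glycan trimming and quality control had 3, 6 and 3 of 11 genes lower and 0 higher. UGGT1, which tags misfolded glycoproteins for another round with the lectins, was at 9.8, 3.7, 3.9 and 4.8 RPKM, and PRKCSH, a subunit of glucosidase II, at 60.5, 40.7, 30.6 and 54.5 RPKM. The other oxidoreductases had 3, 4 and 3 of 11 lower and 0 higher, with ERO1L, which recharges the isomerases, at 8.1, 4.9, 5.3 and 4.2 RPKM. The list of prolyl isomerases and calcium-binding proteins also holds SERPINH1, the collagen chaperone. In that list 4, 3 and 2 of 16 genes were lower and 1, 1 and 4 higher. SERPINH1 was at 74.6, 104.2, 99.0 and 150.8 RPKM, highest with sgRNA-FOXF1, where it was counted as higher.

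The PERK-ATF4 list, named for the arm downstream of EIF2AK3, had 1, 2 and 3 of 11 genes lower and 0 higher. CHAC1, a target of this arm, was at 168.7, 99.6, 102.8 and 49.7 RPKM. DDIT3, the transcription factor CHOP, was at 14.8, 12.4, 12.0 and 9.5 RPKM, and TRIB3 at 7.3, 8.7, 9.2 and 9.4 RPKM. The first 2 were highest with sgRNA-NT and TRIB3 lowest there, so the list did not share a direction.

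The list of other ER stress regulators had 2, 2 and 2 of 10 genes lower and 1, 1 and 2 higher. CREB3 and CREB3L2, membrane-bound transcription factors of the same family, lay on opposite sides, CREB3 at 71.2, 118.8, 115.8 and 116.6 RPKM and CREB3L2 at 16.7, 7.7, 7.5 and 7.1 RPKM. Their canonical transcripts differ in length, at 1496 and 7441 nt. The other ERAD genes had 0, 0 and 2 of 16 lower, the remaining translocation genes 0, 2 and 1 of 15 lower, and the KDEL receptors and vesicle coats 2, 3 and 4 of 25 lower, with 0, 1 and 0 of 15 and 0, 2 and 0 of 25 higher in the last 2 lists and 0 of 16 in the first. LMAN1, a cargo receptor for glycoproteins, was at 15.4, 9.9, 7.3 and 9.1 RPKM.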

How the data were processed

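RNA-seq was made from 4 libraries, 1 for each condition. The deposited unit is RPKM after quantile normalization across libraries. According to the study's methods, it was derived by the authors from HTSeq-count totals over GENCODE v25 genes, the single-end reads having been placed on hg19 with TopHat2 (their tool versions: not given in the sources used here). All deposited RPKM values have 1 decimal and a floor of 1. The authors' 3 columns of log2 ratios were not used. Read counts were not used here, so depth is unknown. The labels name Trizol, Oligotex and the TruSeq RNA kit, the methods Trisure and the TruSeq Stranded kit, so strandedness is uncertain, and 4 members (PDIA3, PDIA6, SYVN1 and SPCS1) overlap exons of a named gene on the other strand.

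Log2 ratios were computed from the deposited RPKM without a pseudocount, for the 7589 genes whose mean reached 2 RPKM. limma used a mean-variance trend and Benjamini-Hochberg adjustment and was run on simulated data. The simulation gave every gene the same spread and no equal guide values, unlike these data. It therefore does not show how often a real change would be called in the fit above. Length and GC content are those of canonical transcripts in GENCODE v44 lifted to GRCh37 (99.6% of genes compared, all members), corrected with cubic splines of 5 knots. The members, the lists and the tests were chosen with earlier results of these data known. All members are named. Genes named from the further lists come from up to 4 per list, those with the largest mean absolute log2 ratio among genes whose mean reached 5 RPKM, and not every list has a gene named. Alternatives were a pseudocount of 1 RPKM, centring, other filters, a 2-fold rule, the corrections, each enhancer guide alone and other limma settings. Python 3.11.15, numpy 2.4.6, pandas 2.3.3, matplotlib 3.10.9, R 4.3.3 and limma 3.58.1 were used.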

Additional observations from a re-analysis of the deposited data

Results flagged for a closer look

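In 9 of 35 members (25.7%) both enhancer guides lay to the same side of sgRNA-NT and sgRNA-FOXF1 lay to the other, as in 985 of all 7589 genes compared (13.0%). The opposite directions against the control were not tested themselves. The limma contrast of sgRNA-FOXF1 with the enhancer guides, described in the report, called 0 of 35 members at adjusted p under 0.05 (smallest adjusted p = 0.449) and gave 8 of 35 at unadjusted p under 0.05, and each gap stayed within 1.5-fold. The log2 difference of sgRNA-FOXF1 from the mean of both enhancer guides was 0.27 for HYOU1, 0.47 for CRELD2, 0.46 for CALR and 0.47 for SSR4, where the enhancer guides were below the control. It was -0.36 for DNAJB9, -0.33 for DERL1, -0.38 for ATF6, -0.38 for SEC61B and -0.30 for SPCS2, where they were above it. In HYOU1, DERL1, ATF6 and SPCS2 sgRNA-FOXF1 was close to the control, at log2 ratios of 0.02, -0.02, -0.04 and -0.02. These differences moved with GC content. After the correction for it the difference was 0.11 for HYOU1, 0.21 for CRELD2, 0.35 for CALR and 0.25 for SSR4, and -0.20 for DNAJB9, -0.12 for DERL1, -0.15 for ATF6, -0.33 for SEC61B and -0.12 for SPCS2. The split, read from signs alone, was then kept in 4 of the 9 members, CRELD2, CALR, SEC61B and SSR4, and lost in 5. In these 4 the corrected log2 ratio of sgRNA-FOXF1 to the control was 0.17, 0.04, -0.009 and 0.15. CALR and SEC61B thus lay close to the control.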

How the results depend on the processing

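No paired analysis was possible because each condition has 1 library. Across the alternatives, 108 of 132 recomputed counts and medians kept within the stated limits and 24 did not. The limits were 1.5 times for a count and, for a median, the SD of 0.21 between the enhancer guides. No member that passed 1.5-fold uncorrected changed sign in that comparison, whereas ATF6 and SSR1, counted as higher with sgRNA-FOXF1 only when corrected for both length and GC content (0.62 and 0.64), were at -0.04 and -0.14 uncorrected. Under the 2-fold rule the lower members numbered 0, 2 and 3 in the 3 comparisons with the control (in the order of the report) and the higher ones 0 in each, against 3.31%, 6.39% and 4.95% of all genes lower and 1.34%, 3.81% and 3.20% higher. Corrected for transcript length they numbered 5, 4 and 8 lower and 2, 2 and 0 higher, with the shares of all genes given in the report. After that correction 1 member was lower with sgRNA-FOXF1 than with the enhancer guides, against 4.05% of all genes. Corrected for GC content, 3 members were higher with sgRNA-AP1-71 (17.0% of all genes), 0 higher with sgRNA-FOXF1 (12.5%), and 1 was lower with sgRNA-AP1-71 than with the other enhancer guide (2.12%). Corrected for both, 5 were lower (5.78%) and 2 higher (7.79%) with sgRNA-AP1-69, 2 higher with sgRNA-AP1-71 (13.5%) and 2 higher with sgRNA-FOXF1 (11.5%). With a mean of at least 5 RPKM, which leaves 31 members, 5 were lower with sgRNA-AP1-71, against 13.7% of the 5095 genes left. With ratios centred on the median, 0 were higher with sgRNA-FOXF1, against 9.54% of all genes. Against each enhancer guide alone, sgRNA-FOXF1 had 0 to 2 members higher and 0 to 1 lower. The higher values were those against sgRNA-AP1-71, and no share of all genes was counted for these comparisons. limma without the genes equal in both guides called 8 members for the enhancer guides and 8 for sgRNA-FOXF1, and 0 under every other setting. The corrections, the filter and the 2-fold rule act through length, GC content, the genes tested or the limit itself, and beyond that the cause was not tested. Both corrections that use GC content and the last limma fit were chosen after seeing the data. Precision is limited by single libraries, by values with 1 decimal and by the unknown depth.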
